A study of Mus musculus with 12 samples.

Results

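The Nduf genes are the nuclear genes for the subunits and assembly factors of respiratory complex I. They were taken as every protein-coding gene whose symbol starts with Nduf, after the Ensembl identifiers of the gene tables had been named from the GENCODE M21 annotation of the mouse build GRCm38, and pseudogenes were left out. This gave 46 genes of the 55416 identifiers in the tables, of which 21928 were named protein-coding genes. Of the 46, 36 encode subunits of complex I and 8 are Ndufaf assembly factors. The other 2, Ndufa4 and Ndufa4l2, carry the name for historical reasons; Ndufa4 is now counted as a subunit of complex IV. The 36 subunits were grouped by their place in the enzyme into 7 core subunits of the matrix arm, 5 accessory subunits of the NADH-oxidising N module, 4 of the quinone-reducing Q module, 9 of the proximal membrane arm and 11 of the distal membrane arm.

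Complex I takes electrons from NADH in the mitochondrial matrix, passes them along a chain of iron-sulfur clusters to ubiquinone and pumps protons across the inner membrane. It is built from separate modules with the help of assembly factors that leave before the enzyme is finished, and it needs subunits from both the nuclear and the mitochondrial genome. Skeletal muscle is rich in the enzyme, and loss of oxidative capacity is a known feature of wasting muscle.

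Messenger RNA was sequenced from a calf muscle, the gastrocnemius, and from the hypothalamus, which regulates appetite, of 6 male BALB/c mice aged 7 weeks. In the cachectic group, 3 mice had each received cells of CT-26, a mouse colon carcinoma line, under the abdominal skin, and their tissues were taken on day 25. The normal group held 3 mice without a tumour. Their day of collection is not given in the labels, so age at collection may have differed between the groups. This made 4 groups of 3 libraries: CT-26 gastrocnemius, normal gastrocnemius, CT-26 hypothalamus and normal hypothalamus, with a muscle and a brain library from each numbered mouse. Tumour-bearing is thus the same thing as cachectic in this design, and a mouse with a tumour but without wasting was not part of it.

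Library totals ran from 26015741 to 52535761 expected counts. Markers matched the labelled tissues: 8 genes of the muscle fibre summed to 73108 to 109880 TPM (a level per transcript length, scaled to the library total) in CT-26 and 79429 to 112020 TPM in normal gastrocnemius, and 7 neuronal genes summed to 1747 to 1885 TPM in CT-26 and 1832 to 1995 TPM in normal hypothalamus. In the gastrocnemius, library 3 of each group stood above its own group for the subunits. Relative to the mean of the normal mice, the median subunit in CT-26 mice 1, 2 and 3 lay at -0.79, -0.54 and -0.05 on the log2 scale, and in normal mice 1, 2 and 3 at -0.10, -0.16 and 0.26. The number of subunits below the normal mean was 34, 35 and 19 of 36 in CT-26 mice 1, 2 and 3. The tumour-bearing mouse 3 was therefore close to the normal mice for the subunits, and the results below are given with and without it where that decides a count. Ndufaf factors followed the mice less closely, with medians of -0.74, -0.39 and -0.33 in the CT-26 mice and -0.01, -0.07 and 0.10 in the normal mice.

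Of the 46 genes, 21 start within 1000 bases of a protein-coding gene on the opposite strand, so that the pair shares the stretch between the starts. Promoter sequences, 250 bases before to 50 bases after the start, were taken from RefSeq on GRCm38.p6, where 40 of the 46 genes were listed. Shown first are the promoters of Ndufaf7, Ndufv3 and Ndufa7, because each is shared with a neighbour whose change in the muscle is set beside it further on. Capitals mark the bases between the annotated start of the Nduf gene and that of its neighbour, which is Cebpz for Ndufaf7, Wdr4 for Ndufv3 and Rps28 for Ndufa7.
Ndufaf7, plus strand, chr17:78936885-78937184: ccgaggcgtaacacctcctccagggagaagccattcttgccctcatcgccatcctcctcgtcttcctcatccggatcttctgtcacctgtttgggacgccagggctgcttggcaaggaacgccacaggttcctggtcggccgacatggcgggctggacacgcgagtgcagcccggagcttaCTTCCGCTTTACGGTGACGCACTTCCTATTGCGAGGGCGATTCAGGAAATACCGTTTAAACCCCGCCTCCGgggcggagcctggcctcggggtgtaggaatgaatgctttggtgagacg
Ndufv3, plus strand, chr17:31519865-31520164: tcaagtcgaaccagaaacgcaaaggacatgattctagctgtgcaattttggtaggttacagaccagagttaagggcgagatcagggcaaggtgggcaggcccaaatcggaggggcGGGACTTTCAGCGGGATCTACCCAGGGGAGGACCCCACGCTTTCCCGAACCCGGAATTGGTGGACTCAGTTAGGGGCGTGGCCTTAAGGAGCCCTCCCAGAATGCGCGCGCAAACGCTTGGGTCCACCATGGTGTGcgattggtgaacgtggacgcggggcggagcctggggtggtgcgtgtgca
Ndufa7, plus strand, chr17:33824322-33824621: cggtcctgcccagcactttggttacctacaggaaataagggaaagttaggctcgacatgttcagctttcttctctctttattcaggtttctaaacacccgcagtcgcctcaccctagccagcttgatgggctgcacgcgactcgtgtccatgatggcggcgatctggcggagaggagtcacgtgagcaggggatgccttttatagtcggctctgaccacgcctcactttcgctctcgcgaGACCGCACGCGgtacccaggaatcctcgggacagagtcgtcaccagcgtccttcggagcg

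The promoters of Ndufaf5 and Ndufaf4 are shown for a short motif both hold although the genes differed in the muscle: Ndufaf5 was lower in CT-26 mice and Ndufaf4 was not called. Capitals mark matches to GCGCATG, a part of the palindromic binding motif of Nrf1, a nuclear regulator of respiratory genes, searched on both strands.
Ndufaf5, plus strand, chr2:140170396-140170695: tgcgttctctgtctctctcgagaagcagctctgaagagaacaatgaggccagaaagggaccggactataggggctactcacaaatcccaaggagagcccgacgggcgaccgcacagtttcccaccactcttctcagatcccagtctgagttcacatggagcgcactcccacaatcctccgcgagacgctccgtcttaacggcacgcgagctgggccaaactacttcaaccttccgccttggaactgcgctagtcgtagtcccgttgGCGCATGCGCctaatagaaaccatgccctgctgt
Ndufaf4, plus strand, chr4:24897833-24898132: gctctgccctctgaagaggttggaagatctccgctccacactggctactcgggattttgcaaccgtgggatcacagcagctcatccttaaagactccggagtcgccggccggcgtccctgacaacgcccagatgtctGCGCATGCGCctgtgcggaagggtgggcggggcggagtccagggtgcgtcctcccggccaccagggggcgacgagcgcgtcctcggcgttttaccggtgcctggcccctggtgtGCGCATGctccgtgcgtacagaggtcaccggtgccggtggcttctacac
In each, matches on the 2 strands overlap to a palindrome, and Ndufaf4 has a further single match, giving 2 matches in Ndufaf5 and 3 in Ndufaf4. The motif was present in 7 of the 40 listed Nduf promoters (17.5%), namely those of Ndufa11, Ndufa6, Ndufa8, Ndufaf4, Ndufaf5, Ndufb6 and Ndufb8, and in 4.04% of all 27025 promoters. AAGATGG, a motif of Yy1, was present in 8 of 40 (20.0%) against 6.48% of all promoters. CCGGAAG, a motif of ETS factors such as Gabpa, was present in 6 of 40 (15.0%) against 9.12%. AAGGTCA, the core site of the estrogen-related receptor Esrra, was present in 3 of 40 (7.5%) against 4.66%. Of the 14 listed promoters of genes that were lower in the CT-26 gastrocnemius, 2 held the Nrf1 motif, 3 the Yy1 motif, 2 the ETS motif and 1 the Esrra motif. Among the 25 listed promoters of Nduf genes not called there, 5 held the Nrf1 motif, 5 the Yy1 motif, 4 the ETS motif and 2 the Esrra motif.

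In the gastrocnemius, 16 of the 46 genes were lower and 1 was higher in CT-26 than in normal mice, with edgeR's quasi-likelihood test and a Benjamini-Hochberg adjusted p below 0.05 over all 14265 genes tested. All 46 passed the filter on low counts. The background was 18.3% of all genes called lower and 19.6% called higher. Among the 36 subunits 12 were lower and 1 was higher, and 35 of the 36 log2 fold changes were negative, with a median of -0.46 and a range of -1.06 to 0.50. Among the 8 Ndufaf factors 4 were lower and none was higher, 6 were negative, and the median was -0.54. The median over all genes tested was -0.00. Levels that did not overlap, with all 3 CT-26 mice below all 3 normal mice, were seen in 19 of 46 genes (13 subunits, 5 Ndufaf factors, and Ndufa4), against 25.3% of all genes; 1 gene lay above, against 26.3%. A lower level in bulk tissue cannot be told apart from a smaller share of the cells that express the gene.

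The size of this shift, and for some subunits its sign, depended on the scaling. TMM, edgeR's trimmed mean scaling, sets the median gene near no change. With scaling by library totals the median of all genes was 0.20 and that of the 46 was -0.25, with 7 lower and 1 higher against 11.7% and 27.7% of all genes. With limma on log2(TPM + 0.5) these medians were 0.35 and -0.07, with 5 lower and 2 higher against 6.29% and 33.4%. Relative to the median of all genes, the 46 lay at -0.46 under TMM, at -0.45 under library totals and at -0.42 under TPM. Lower therefore means lower relative to the bulk of the transcriptome. Ndufs1, Ndufv3, Ndufc1, Ndufb2 and Ndufaf5 were called lower under all of these 3 scalings. Without the CT-26 mouse 3, 26 of the 46 were lower and 0 higher, against 17.4% and 18.9% of all genes. Without the normal mouse 3, 6 were lower and 0 higher, against 14% and 14.3%, so that the share of lower genes was then no larger than the background. Of the 36 subunits alone, 13.9% were lower without the CT-26 mouse 1, against 13.7% of all genes. Without the CT-26 mouse 2 this share was 16.7% against 18.2%, and without the normal mouse 3 it was 11.1% against 14%. In these fits the subunits showed no clear excess of lower genes. Without the normal mouse 1 or 2 their share was 16.7% against 12.2% and 19.4% against 12.6%.

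**Figure D1:**
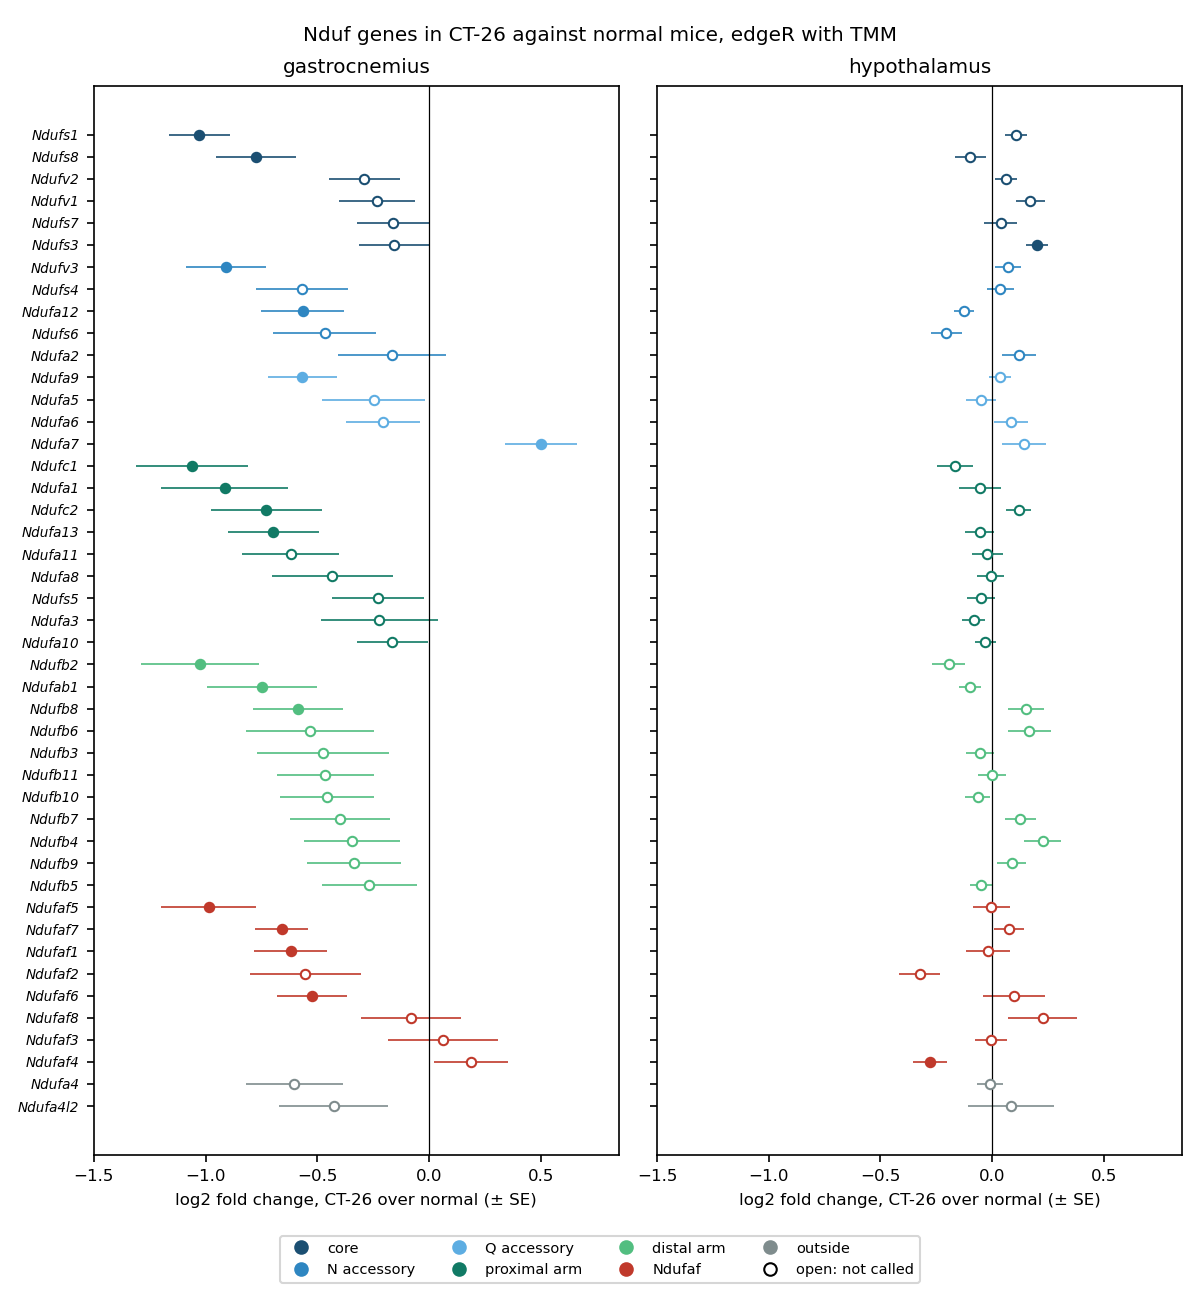
Log2 fold changes of 45 of the 46 genes, CT-26 over normal (horizontal axis; bars are ± SE, n = 3 mice per group), in the gastrocnemius (left panel) and the hypothalamus (right panel), grouped and coloured by place in complex I. Filled points were called at an adjusted p below 0.05; in the gastrocnemius most points lie left of 0, down to -1.06 for Ndufc1, with Ndufa7 at 0.50 as the called exception, while hypothalamus points lie between -0.32 and 0.23.

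The 7 nuclear core subunits carry the flavin and the iron-sulfur clusters. Of these, 2 were lower in the CT-26 gastrocnemius and 5 were not called, and the median log2 fold change was -0.23. Ndufs1 (ENSMUSG00000025968, chr1:63143596-63176833, minus strand), an iron-sulfur protein of the N module, had 134, 139 and 163 CPM (counts scaled to the TMM-adjusted library total) in CT-26 mice 1, 2 and 3, against 287, 282 and 320 CPM in normal mice 1, 2 and 3. The groups were far apart and each varied little. Its mean was 145 ± 15.4 CPM in CT-26 and 296 ± 20.5 CPM in normal mice (SD, n = 3 each), a log2 fold change of -1.03 ± 0.14 (SE; edgeR adjusted p = 0.00107), and it was called lower in every setting and every leave-one-out fit run. Ndufs8 (ENSMUSG00000059734, chr19:3908863-3912774, minus strand), which holds clusters near the quinone site, had 54.5, 63.6 and 74.6 CPM in CT-26 mice, against 94.6, 99.8 and 135 CPM in normal mice. No CT-26 mouse reached the lowest normal mouse, and the log2 fold change was -0.77 ± 0.18 (edgeR adjusted p = 0.0108). It was also lower in each leave-one-out fit, but not with TPM.

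The core subunits described next overlapped between the groups. Ndufs3, a Q module protein, had 176, 185 and 232 CPM in CT-26 mice, against 235, 191 and 235 CPM in normal mice. Ndufs7, the iron-sulfur protein next to ubiquinone, had 155, 170 and 204 CPM in CT-26 mice, against 172, 189 and 230 CPM in normal mice. Both had log2 fold changes of -0.16 ± 0.16. Ndufv1, the subunit that binds NADH and flavin, had 157, 142 and 191 CPM in CT-26 mice, against 191, 160 and 223 CPM in normal mice (-0.23 ± 0.17). Ndufv2, its iron-sulfur partner, had 240, 232 and 293 CPM in CT-26 mice, against 282, 293 and 359 CPM in normal mice (-0.29 ± 0.16). On the TPM scale the means of these 4 were higher in CT-26 than in normal mice, and none was called. They were 291 ± 32.2 against 250 ± 35.2 TPM for Ndufs3 and 404 ± 40.0 against 342 ± 10.2 TPM for Ndufs7. For Ndufv1 they were 171 ± 26.8 against 154 ± 10.2 TPM, and for Ndufv2 365 ± 54.9 against 316 ± 6.71 TPM (SD, n = 3 each). Ndufs1 and Ndufs8 stayed lower in TPM, at 106 against 168 and 133 against 172. The difference between Ndufs1 or Ndufs8 and these 4 was not itself tested.

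**Figure D2:**
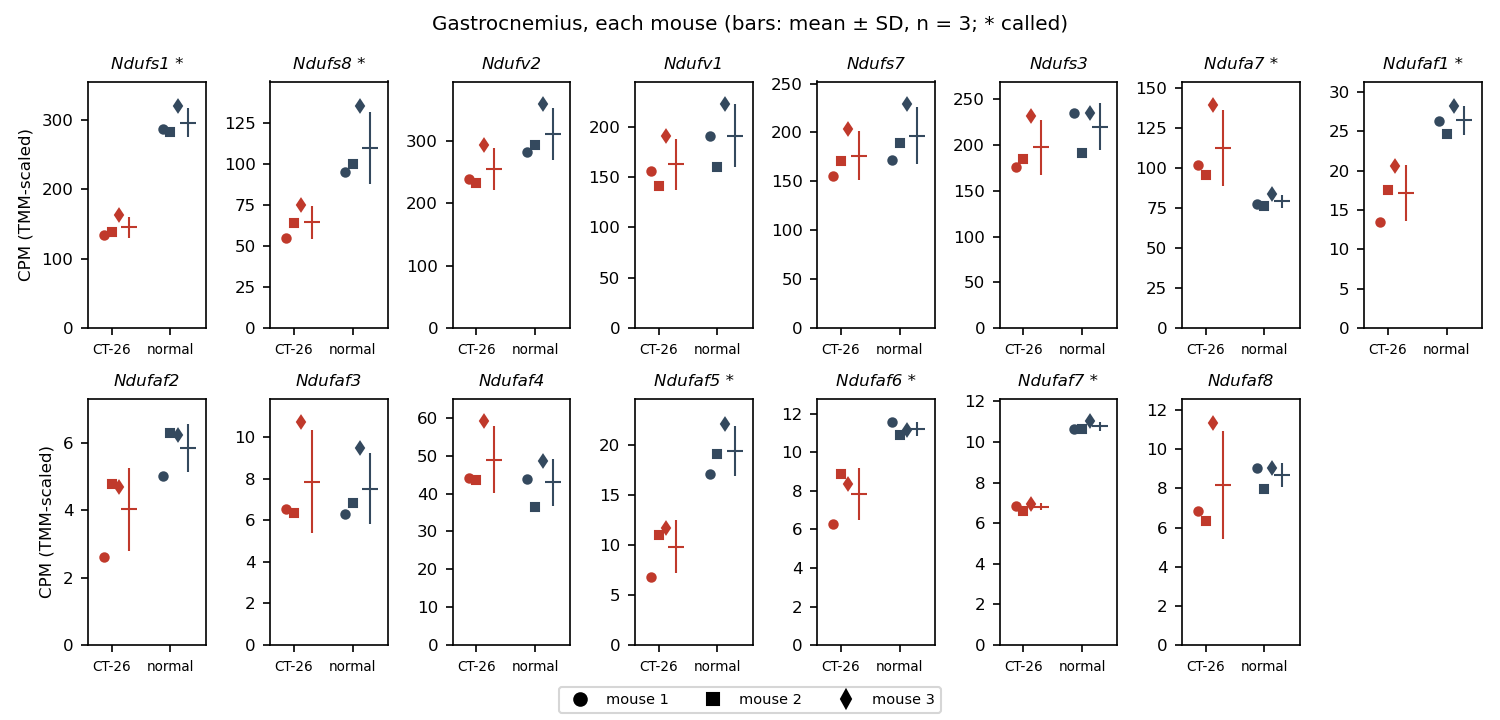
Gastrocnemius levels in CPM after TMM scaling (vertical axes from 0) of 6 of the 7 core subunits, Ndufa7 and the 8 Ndufaf factors, CT-26 left and normal right in each panel; symbols are single mice, bars are mean ± SD (n = 3), and a star marks a called gene. Ndufs1 and Ndufaf7 show wide gaps with little spread, Ndufa7 is higher in CT-26 mice, and mouse 3 is often the highest of its group.

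Among the 5 accessory subunits of the N module, 2 were lower and the median was -0.57. Ndufv3 (ENSMUSG00000024038, chr17:31520115-31531331, plus strand), a small subunit at the tip of the matrix arm with a tissue-dependent isoform, had 42.3, 57.9 and 65.5 CPM in CT-26 mice, against 93, 101 and 117.2 CPM in normal mice. The groups did not overlap, and the log2 fold change was -0.91 ± 0.18 (edgeR adjusted p = 0.00558). Ndufa12, which takes the place that the assembly factor Ndufaf2 leaves, had 128, 168 and 188 CPM in CT-26 mice, against 202, 233 and 282 CPM in normal mice (-0.57 ± 0.19; edgeR adjusted p = 0.0424). A processed pseudogene, Gm15920, is 99.5% identical to it over 402 bases and carries 14.9% as many counts, so the division of reads between them is uncertain. The call of Ndufa12 held in 1 of 6 leave-one-out fits, the one without the CT-26 mouse 3. Ndufs4, whose loss causes Leigh-like disease in mice and humans, was at -0.57 ± 0.21 (edgeR adjusted p = 0.0606), and Ndufs6 and Ndufa2 overlapped between the groups.

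The 4 accessory subunits of the Q module held 1 lower and 1 higher gene. Ndufa9, which sits beside the quinone site, had 92.1, 91.2 and 118 CPM in CT-26 mice, against 143, 133 and 170 CPM in normal mice. All CT-26 mice were below all normal mice (-0.57 ± 0.15; edgeR adjusted p = 0.0215), and the call was lost with library totals, with TPM and without the CT-26 mouse 1 or the normal mouse 1 or 3. Ndufa7 (ENSMUSG00000041881, chr17:33824572-33838317, plus strand) had 102, 95.6 and 139 CPM in CT-26 mice, against 77.4, 76.4 and 83.9 CPM in normal mice. It was the only Nduf gene called higher in this fit, with a mean of 112 ± 23.6 CPM in CT-26 and 79.2 ± 4.09 CPM in normal mice (SD, n = 3 each) and a log2 fold change of 0.50 ± 0.16 (edgeR adjusted p = 0.0381). Mouse 3 carried part of this: without the CT-26 mouse 3 the value was 0.32 and was not called, and the call was also lost without any single normal mouse. It held under every scaling and filter tried. Library totals and TPM favour a higher call, with 27.7% and 33.4% of all genes called higher there. Ndufa5 and Ndufa6 overlapped between the groups, at -0.25 ± 0.23 and -0.21 ± 0.17.

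In the proximal membrane arm, which joins the matrix arm to the pumping modules, 4 of 9 accessory subunits were lower and the median was -0.62. Ndufc1 (ENSMUSG00000037152, chr3:51404677-51408988, minus strand) had 35.6, 37.1 and 65.1 CPM in CT-26 mice, against 90.3, 81.3 and 116 CPM in normal mice. This was the most negative log2 fold change among the 46, -1.06 ± 0.25 (edgeR adjusted p = 0.0119), and it was called in each leave-one-out fit. A stretch of 110 bases of Ndufc1 matches Dynll1 at 97.3% identity. Ndufa13, also known as Grim19 for a role in cell death, had 103, 121 and 159 CPM in CT-26 mice, against 174, 194 and 254 CPM in normal mice (-0.70 ± 0.20; edgeR adjusted p = 0.0276). Ndufa1, a small membrane protein encoded on the X chromosome, had 21.3, 28.1 and 44.1 CPM in CT-26 mice, against 49.1, 49.3 and 77.5 CPM in normal mice (-0.91 ± 0.28; edgeR adjusted p = 0.0347). In both genes the CT-26 mouse 3 was the closest to the normal mice. Ndufc2 was the fourth, at -0.73 ± 0.25. The calls of Ndufa13 and Ndufa1 held in 2 of 6 leave-one-out fits and that of Ndufc2 in 1, the one without the CT-26 mouse 3, and all 3 were lost with library totals and with TPM. Ndufa11 was at -0.62 ± 0.22 without overlap but was not called (edgeR adjusted p = 0.0529), and Ndufa3, Ndufa8, Ndufa10 and Ndufs5 overlapped between the groups, at -0.43 to -0.16.

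In the distal membrane arm, which contains the last proton-pumping units, 3 of 11 accessory subunits were lower and the median was -0.46. Ndufb2 (ENSMUSG00000002416, chr6:39592574-39603382, plus strand) had 16, 20.2 and 33.6 CPM in CT-26 mice, against 44, 41.1 and 56.6 CPM in normal mice (-1.02 ± 0.26; edgeR adjusted p = 0.0173). Ndufab1, the mitochondrial acyl carrier protein, which also serves fatty acid and iron-sulfur cluster synthesis, had 78.3, 84.4 and 137 CPM in CT-26 mice, against 148, 143 and 213 CPM in normal mice (-0.75 ± 0.25; edgeR adjusted p = 0.0427). Ndufb8, a labile subunit often used as a marker of assembled complex I, had 182, 225 and 305 CPM in CT-26 mice, against 333, 334 and 402 CPM in normal mice (-0.59 ± 0.20; edgeR adjusted p = 0.0487). None of these 3 overlapped between the groups. The calls of Ndufab1 and Ndufb8 were lost in 5 of 6 leave-one-out fits; they held only without the CT-26 mouse 3. Ndufb4 was at -0.34 ± 0.22 and was not called, but its processed copy Ndufb4c is identical over 390 bases and carried 92.2% as many counts. With the counts of both summed, a choice made after seeing the data, the value was -0.40 ± 0.24 and was still not called. Ndufb1-ps, which the annotation lists as non-coding and which was therefore not among the 46, was at -0.49 ± 0.28. Ndufb4c and Ndufb1-ps were named after their values had been seen.

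The Ndufaf factors were expressed far below the subunits they help to assemble. Ndufaf5 (ENSMUSG00000027384, chr2:140170649-140203689, plus strand), which hydroxylates an arginine of Ndufs7, had 6.82, 11 and 11.7 CPM in CT-26 mice, against 17.1, 19.1 and 22.1 CPM in normal mice. The groups did not overlap, and the log2 fold change was -0.99 ± 0.21 (edgeR adjusted p = 0.00779), called in every setting and leave-one-out fit run. Ndufaf7 (ENSMUSG00000024082, chr17:78937136-78948052, plus strand), a mitochondrial methyltransferase, had 6.86, 6.62 and 6.96 CPM in CT-26 mice, against 10.7, 10.6 and 11 CPM in normal mice. In CPM its mice were the most alike within each group, and the log2 fold change was -0.66 ± 0.12 (edgeR adjusted p = 0.0039). It was not called with TPM. On that scale the groups overlapped, with 9.03, 7.62 and 7.53 TPM in CT-26 mice, against 10.35, 8.71 and 7.89 TPM in normal mice. Stretches of Ndufaf7 over 100 bases match other transcripts at 97% identity or more, Mfsd4a and Zfp397 among them, so a part of its counts is uncertain. Ndufs7, the substrate of Ndufaf5, was not called.

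Ndufaf1, a factor for the membrane arm, had 13.5, 17.5 and 20.6 CPM in CT-26 mice, against 26.3, 24.6 and 28.3 CPM in normal mice (-0.62 ± 0.16; edgeR adjusted p = 0.0186). Ndufaf6, needed for early steps of the Q module, had 6.29, 8.87 and 8.34 CPM in CT-26 mice, against 11.6, 10.9 and 11.2 CPM in normal mice (-0.52 ± 0.16; edgeR adjusted p = 0.0303). Neither overlapped between the groups, and both calls were lost with library totals and with TPM. The call of Ndufaf1 was lost without the normal mouse 1 or 3, and that of Ndufaf6 without any single normal mouse and without the CT-26 mouse 1, so that it held in 2 of 6 leave-one-out fits. Ndufaf2, the paralogue of Ndufa12 that prepares the docking of the N module, had 2.6, 4.8 and 4.69 CPM in CT-26 mice, against 5.04, 6.3 and 6.25 CPM in normal mice. It did not overlap but was not called (-0.55 ± 0.25; edgeR adjusted p = 0.11), and it shares stretches with other transcripts and overlaps Smim15 on the opposite strand over 4727 bases.

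The remaining factors overlapped between the groups. Ndufaf3 and Ndufaf4 act together on the Q module. Ndufaf3 had 6.52, 6.35 and 10.7 CPM in CT-26 mice, against 6.28, 6.82 and 9.45 CPM in normal mice (0.06 ± 0.25). Ndufaf4 (ENSMUSG00000028261, chr4:24898083-24905001, plus strand) had 44.1, 43.5 and 59.1 CPM in CT-26 mice, against 43.9, 36.4 and 48.5 CPM in normal mice (0.19 ± 0.17). Under TPM scaling Ndufaf4 was called higher, at 0.56 on the log2(TPM + 0.5) scale with limma (adjusted p = 0.0217). In that fit 33.4% of all genes were called higher. Ndufaf8, the partner of Ndufaf5 in human cells, had 6.86, 6.35 and 11.4 CPM in CT-26 mice, against 9.02, 7.95 and 9.03 CPM in normal mice (-0.08 ± 0.22). Of the 2 genes outside complex I, Ndufa4 had 151, 187 and 249 CPM in CT-26 mice, against 260, 267 and 363 CPM in normal mice, without overlap (-0.60 ± 0.22; edgeR adjusted p = 0.0563). Ndufa4l2, a hypoxia-induced relative, had 4.62, 3.79 and 7.14 CPM in CT-26 mice, against 6.03, 6.71 and 8.21 CPM in normal mice (-0.43 ± 0.24).

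Other genes of the pathway moved in both directions. Of 9 further assembly factors tested from a chosen list, 5 were lower in the CT-26 gastrocnemius and none was higher: Tmem126b at -0.72, Timmdc1 at -0.60, Tmem70 at -0.59, Acad9 at -0.46 and Tmem186 at -0.40, all factors of the membrane arm. The background was 18.3% of all genes lower. With TPM none of these 9 was called, with library totals 1 was, and in the leave-one-out fits 1 to 4 were, with 1 left without the CT-26 mouse 1, the normal mouse 1 or the normal mouse 3. Tmem126b was called in all 6 of those fits. Of the 7 mitochondrially encoded subunits, 6 were lower, against the same 18.3%, and the median log2 fold change was -0.99. With library totals mt-Nd1 and mt-Nd3 were not called, and with TPM mt-Nd1, mt-Nd3 and mt-Nd4 were not called. The count was 1 to 5 in the leave-one-out fits, with 1 left without the CT-26 mouse 1, and mt-Nd4l alone was called in all 6 fits. Their summed TPM per summed TPM of the 7 nuclear core subunits was 30.1, 47.2 and 38.5 in CT-26 mice and 58.5, 52.1 and 67.2 in normal mice, without overlap. Of 10 regulators, Esrra, Ppargc1b and Tfam were lower, at -0.78, -0.74 and -0.47, and Nrf1 and Yy1 were higher, at 1.03 and 0.32, against 18.3% and 19.6% of all genes. In the 6 leave-one-out fits Nrf1 and Ppargc1b were called in 6, Esrra in 4, Tfam in 3 and Yy1 in 1. With TPM Esrra, Ppargc1b and Tfam were not called, and with library totals Esrra and Tfam were not called. Nrf1 had 16, 16.9 and 14.4 CPM in CT-26 mice, against 8.11, 7.59 and 7.43 CPM in normal mice (edgeR adjusted p = 0.000735). Ppargc1a, a coactivator of Nrf1 and Esrra, overlapped between the groups, with 45.2, 25.2 and 31.5 CPM in CT-26 mice, against 24.6, 45.5 and 71 CPM in normal mice (-0.47 ± 0.36).

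Markers of other cells changed in the same libraries. In the gastrocnemius, all 6 neutrophil markers were higher, summing to 71.3 to 534 TPM in CT-26 mice against 0.77 to 1.23 TPM in normal mice, and all 5 red cell markers were higher, summing to 2440 to 3051 TPM against 532 to 892 TPM in normal mice. All 5 adipocyte markers were lower, with 18.5 to 24.2 TPM in CT-26 against 74.1 to 94.7 TPM in normal mice, and 4 of 5 fibroblast markers were lower. Of the 8 fibre markers 1 was higher and 3 were lower, and their sums overlapped. The 7 slow fibre markers, which belong to fibres rich in mitochondria, summed to 5940, 886 and 3176 TPM in CT-26 mice 1, 2 and 3 and to 1140.5, 762 and 1670 TPM in normal mice 1, 2 and 3; the smallest edgeR adjusted p among them was 0.0512, for Myh7. No marker of these lists was at 0 in every library. The part of these markers in the Nduf changes was not tested.

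On the TPM scale, which compares levels between genes, the median subunit was at 238 ± 50.1 TPM and the median Ndufaf factor at 13.6 ± 0.85 TPM in CT-26 gastrocnemius, against 240.2 ± 12.2 and 15.5 ± 1.44 TPM in normal gastrocnemius (SD, n = 3 each). The 36 subunits summed to 9847, 8714 and 12356 TPM in CT-26 gastrocnemius, against 10467, 9790 and 10768 TPM in normal gastrocnemius. The 8 Ndufaf factors summed to 117.7, 117.9 and 141.8 TPM in CT-26 gastrocnemius, against 128.2, 122.1 and 119.2 TPM in normal gastrocnemius. In both sums the groups overlapped, with the CT-26 mouse 3 the highest of all 6. The subunit sum per Ndufaf sum was 81.6 ± 6.85 in CT-26 and 84.1 ± 5.49 in normal gastrocnemius (SD, n = 3 each), a difference below the spread between mice. TPM is a share of the library total, to which abundant transcripts add most. Mitochondrial transcripts took 8.26% to 11.1% of counts in CT-26 and 13.5% to 19.7% in normal gastrocnemius. Their part in these sums was not tested. With mitochondrial transcripts left out of the total, the subunits summed to 12624 ± 2519 TPM in CT-26 and 14030 ± 1100 TPM in normal gastrocnemius (SD, n = 3 each). The mice still overlapped, with 11722, 10681 and 15470 TPM in CT-26 mice, against 14262, 12832 and 14995 TPM in normal mice.

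**Figure D3:**
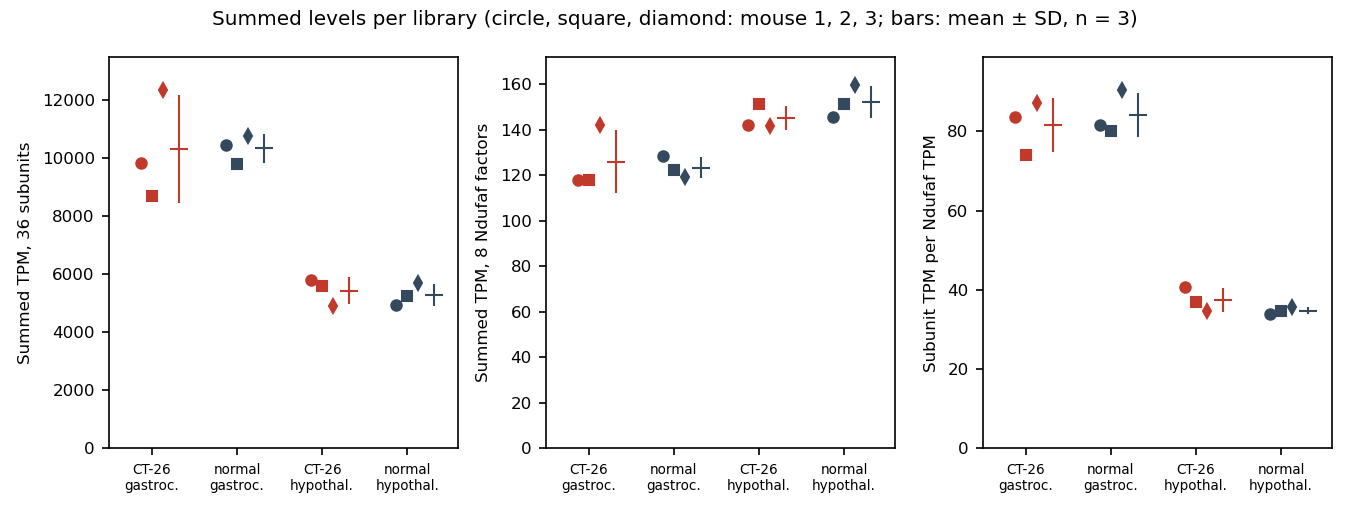
Summed TPM (vertical axes from 0) of the 36 subunits, summed TPM of the 8 Ndufaf factors, and the first divided by the second, in the 4 groups; symbols are mice 1, 2 and 3, and bars are mean ± SD (n = 3). CT-26 and normal mice overlap in each tissue, and the subunit sum per Ndufaf sum is 73.9 to 90.3 in the gastrocnemius and 33.8 to 40.7 in the hypothalamus.

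The tissues differed in this balance. In the hypothalamus the subunits summed to 5791, 5596 and 4901 TPM in CT-26 mice, against 4925, 5236 and 5701 TPM in normal mice, and the Ndufaf factors to 142.2, 151.2 and 141.7 TPM in CT-26 mice, against 145.7, 151.0 and 159.7 TPM in normal mice. The subunit sum per Ndufaf sum was 37.4 ± 3.09 in CT-26 and 34.7 ± 0.94 in normal hypothalamus, below every gastrocnemius library. In normal mice all 36 subunits had a higher mean TPM in the gastrocnemius than in the hypothalamus, by 1.02-fold for Ndufc2 up to 3.01-fold for Ndufs3. The Ndufaf factors were divided: 4 of 8 were higher in the gastrocnemius, up to 1.99-fold for Ndufaf6, and Ndufaf3, Ndufaf7, Ndufaf2 and Ndufaf5 were at 0.36, 0.37, 0.44 and 0.78 of the hypothalamus level. These ratios across tissues are descriptions of TPM with no test. Ndufb8 was the highest subunit in all 4 groups, with 781 ± 193 TPM in CT-26 and 861 ± 45.9 TPM in normal gastrocnemius. The lowest were Ndufb6 in CT-26 gastrocnemius (98.0 ± 40.8 TPM) and Ndufs4 in normal gastrocnemius (94.7 ± 12.1 TPM), whose levels did not stand apart from Ndufb2 and Ndufb6 beyond their spread. Among the factors, Ndufaf4 was highest in CT-26 gastrocnemius (29.2 ± 2.25 TPM) and Ndufaf1 in normal gastrocnemius (21.9 ± 1.94 TPM), where it did not stand apart from Ndufaf4 (19.7 ± 1.90 TPM).

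In the hypothalamus 1 of the 46 genes was lower and 1 was higher, against 4.83% and 3.94% of the 17961 genes tested, and the median log2 fold change was -0.00. Ndufs3 (ENSMUSG00000005510, chr2:90894634-90904827, minus strand) had 69, 70.8 and 67.2 CPM in CT-26 mice, against 59.5, 58.6 and 61.8 CPM in normal mice. The groups did not overlap, but the difference was small (0.20 ± 0.05; edgeR adjusted p = 0.0303), was called in 1 of 6 leave-one-out fits and was lost with TPM. Ndufaf4 had 27.5, 30.3 and 32.6 CPM in CT-26 mice, against 34.6, 36.8 and 38.7 CPM in normal mice. It did not overlap either (-0.28 ± 0.08; edgeR adjusted p = 0.0461), and the call was lost with library totals, with TPM and in 5 of 6 leave-one-out fits. Ndufaf2, named after its values had been seen, had the most negative value, with 8.02, 9.26 and 9.07 CPM in CT-26 mice, against 10.9, 11.1 and 11 CPM in normal mice, and was not called (-0.32 ± 0.09; edgeR adjusted p = 0.0538). Across the 46 genes, 5 lay wholly below and 2 wholly above the normal mice, against 15.6% and 14.7% of all genes. In these libraries 4 of 5 oligodendrocyte markers were lower, summing to 1443 to 1688 TPM in CT-26 against 2308 to 2608 TPM in normal mice, and 5 of 6 neutrophil and all 5 red cell markers were higher; their part in the Nduf values was not tested.

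The change in the gastrocnemius was then set against that in the hypothalamus in a fit of all 12 libraries over 18746 genes. The interaction, the log2 fold change in muscle minus that in hypothalamus, was negative and called in 11 of the 46 genes and positive and called in none, against 14% and 12.4% of all genes. At an unadjusted p below 0.05 these counts were 23 and 1, against 20.1% and 17.3% of all genes, and DESeq2 called 16 negative and 0 positive, against 16.6% and 13.4% of all genes. By role, 7 of 36 subunits and 4 of 8 Ndufaf factors were called, all 11 among the 16 lower in muscle. The median was -0.46 over the 46 and -0.06 over all genes. The smallest p-values belonged to Ndufs1 at -1.15 ± 0.14 (edgeR adjusted p = 9.52e-05), Ndufaf7 at -0.75 ± 0.12 (0.000613) and Ndufv3 at -0.99 ± 0.20 (0.00263). Ndufaf5 followed at -1.002 ± 0.24 (edgeR adjusted p = 0.00816), then Ndufa9 at -0.62 ± 0.16 (0.0145) and Ndufs8 at -0.69 ± 0.20 (0.0214). With the mouse as a replicate block, since the muscle and brain of a mouse share their number, 13 were called lower and 0 higher, against 11.1% and 9.56% of all genes, and Ndufaf6 was no longer among them. Ndufaf4 had a positive value in muscle and a negative one in hypothalamus, and its interaction of 0.45 ± 0.19 was not called (edgeR adjusted p = 0.103). With library totals 4 genes were called lower and 1 higher, against 8.72% and 17.3% of all genes. With TPM 3 were lower and 1 higher, against 4.61% and 24.8%; the higher one was Ndufaf4 in both.

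**Figure D4:**
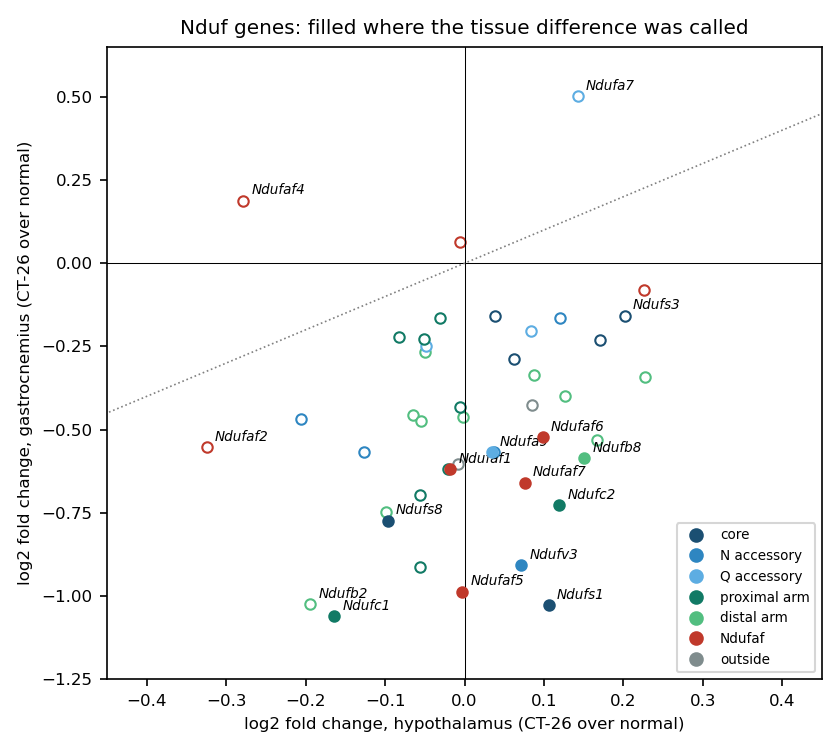
Log2 fold change, CT-26 over normal, of 45 of the 46 genes in the gastrocnemius (vertical axis) against the hypothalamus (horizontal axis, a narrower scale); the dotted line marks equal change, colours give the place in complex I, and filled points have a called interaction. The 11 filled points lie between -1.06 and -0.52 in muscle and between -0.16 and 0.15 in hypothalamus.

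Head-to-head neighbours, singled out after their values had been seen, gave a comparison within 1 locus. Of the 21 pairs, 19 had a neighbour tested in the gastrocnemius, and 8 of these neighbours were higher in CT-26 mice and none was lower, against 19.6% and 18.3% of all genes. The sharpest contrast was Ndufs1 and Eef1b2, a subunit of a translation elongation factor, whose starts are 8 bases apart. Eef1b2 had 89.1, 116 and 130 CPM in CT-26 mice, against 68.9, 67.6 and 71.5 CPM in normal mice, a log2 fold change of 0.68 ± 0.15 (edgeR adjusted p = 0.0094) beside -1.03 for Ndufs1. Cebpz, a nucleolar protein, starts 70 bases from Ndufaf7 and had 47.0, 51.1 and 42.9 CPM in CT-26 mice, against 26, 28.5 and 25.0 CPM in normal mice (0.83 ± 0.12; edgeR adjusted p = 0.00158). Neither neighbour overlapped between the groups, and both were higher under library totals and TPM and in every leave-one-out fit too. Under library totals and TPM, 27.7% and 33.4% of all genes were called higher.

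Wdr4, part of a tRNA methyltransferase, starts 135 bases from Ndufv3 and had 5.68, 5.50 and 5.29 CPM in CT-26 mice, against 3.36, 3.56 and 4.48 CPM in normal mice (0.53 ± 0.17; edgeR adjusted p = 0.035); it was not called with TPM, and in the leave-one-out fits it was called only without the normal mouse 3. Rps28, a protein of the small ribosomal subunit, starts 10 bases from Ndufa7 and had 102, 127 and 173 CPM in CT-26 mice, against 61.8, 51.6 and 74.0 CPM in normal mice (1.10 ± 0.21; edgeR adjusted p = 0.0052). Here both genes of the pair were higher. Vmac beside Ndufa11, Fam126b beside Ndufb3 and Ik beside Ndufa2 were also called higher; in the leave-one-out fits Vmac and Rps28 held in 6 of 6, Fam126b in 3 and Ik in 1. Esf1, 85 bases from Ndufaf5, and Rnf113a1, 82 bases from Ndufa1, were not called, at 0.10 ± 0.14 and 0.25 ± 0.26. Vmac overlaps Ndufa11 over 256 bases and Eef1b2 overlaps Ndufs1 over 9. On the opposite strand Ndufs1 also overlaps the non-coding Ino80dos over 14695 bases, which was at 0.08 and not called (edgeR adjusted p = 0.851). The strand setting of the counting is not given in the sources used here, so reads from such overlaps could count for either gene.

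**Figure D5:**
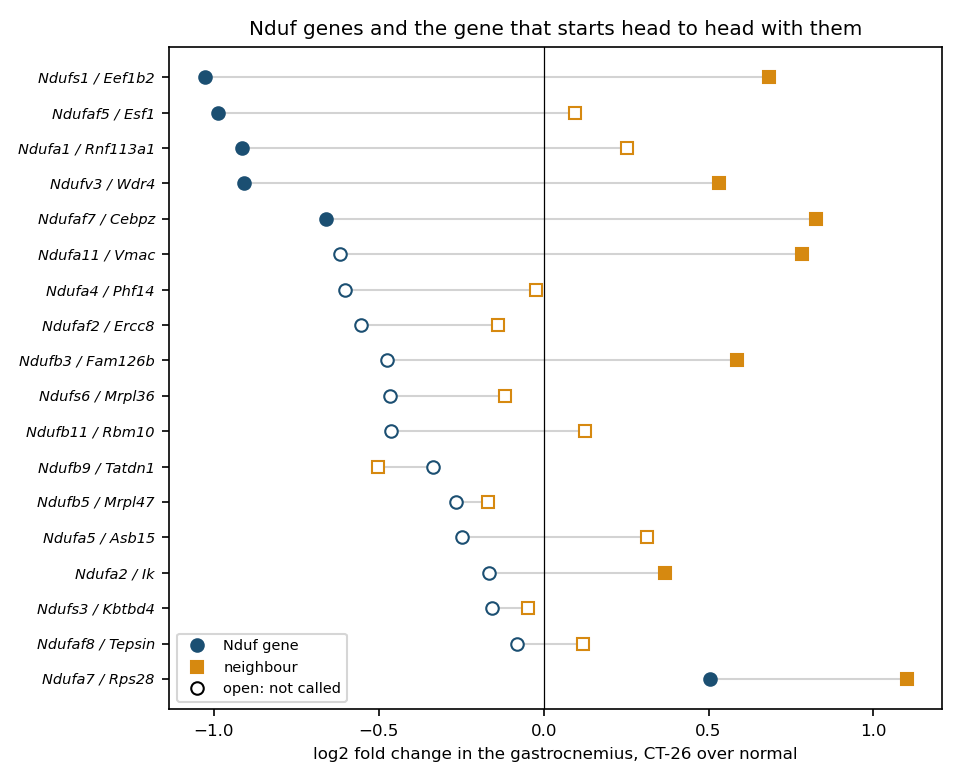
Log2 fold change in the gastrocnemius, CT-26 over normal (horizontal axis), of 18 Nduf genes (circles) and of the protein-coding neighbour that starts head to head with each (squares); filled symbols were called. Among the 5 pairs with a lower Nduf gene, 3 neighbours (Eef1b2, Wdr4 and Cebpz) were higher, from 0.53 to 0.83, and in the pair of Ndufa7 and Rps28 both were higher.

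The genes outside the Nduf family whose levels followed the subunits most closely over the 6 gastrocnemius libraries were Mrps36, Ppif, Cox4i1, Mrpl18 and Mrpl1, with Pearson correlations to the mean of the subunits of 0.997, 0.995, 0.994, 0.993 and 0.993 among 12739 genes compared. All encode mitochondrial proteins. Their log2 fold changes lay between -0.61 and -0.23, and none was called. These correlations are descriptions over 6 libraries that share the difference between mouse 3 and the others.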

How the data were processed

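Per the labels' protocols, libraries came from a directional MGIEasy kit read as 100 bp pairs. RSEM 1.3.3, STAR 2.7.9a, Trim Galore 0.6.6 and the build GRCm38 are named in the submitters' processing notes, with no order; annotation release and strand setting are not given in the sources used here. The deposited tables hold RSEM expected counts, rounded here before testing, and TPM, used here for levels and 1 alternative test; both were made by the authors. The FPKM values that the authors deposited beside them were not used. GENCODE M21 named 52135 of 55416 identifiers and supplied coordinates. Each tissue's 6 libraries were fitted with edgeR 4.0.16 in R 4.3.3 (filterByExpr, TMM, quasi-likelihood, Benjamini-Hochberg, called below 0.05), and all 12 for the interaction. Alternatives used library totals, DESeq2 1.42.0, other filters, limma 3.58.1 on log2(TPM + 0.5 or 0.1) with a mean TPM of at least 0.5, a replicate block and each library left out. Near-copies were sought with blastn 2.17.0 among the annotated transcripts (at least 97% identity over 100 bases). The fits were checked on simulated counts.

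The members, gene lists and tests were chosen with earlier results of these data known. Values per mouse are given for the core subunits, of which 1 is not reported here but is kept in the counts, medians and sums, and for every Ndufaf factor, Ndufa4 and Ndufa4l2, up to 3 called genes with the smallest p in each other role group, and called genes in the hypothalamus; the interaction is given for the 6 smallest p-values. The genes most like the subunits are the 5 with the highest Pearson correlation to their mean standardised log2 CPM. Same-numbered CT-26 and normal mice are different animals. For this reason the numbers were not taken to pair them. Their deviations correlated at -0.06, 0.18 and 0.26 in the gastrocnemius and at -0.10, -0.03 and 0.00 in the hypothalamus. Mice of different numbers correlated at -0.25 to 0.10 in the gastrocnemius, below the pairs numbered 2 and 3. Whether the number carries anything shared between the groups was not tested. Muscle and brain of a mouse are paired by the labels. Replicate libraries differed by more than sampling noise in every group.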

Additional observations from a re-analysis of the deposited data

Results flagged for a closer look

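For 11 genes the change in the gastrocnemius differed from that in the hypothalamus by a test of the difference itself, edgeR's interaction term over 12 libraries with an adjusted p below 0.05. The difference, muscle minus hypothalamus on the log2 scale, was -1.15 for Ndufs1, -1.002 for Ndufaf5, -0.99 for Ndufv3, -0.91 for Ndufc1, -0.86 for Ndufc2, -0.75 for Ndufb8, -0.75 for Ndufaf7, -0.69 for Ndufs8, -0.64 for Ndufaf6, -0.62 for Ndufaf1 and -0.62 for Ndufa9. In muscle the CPM of the 3 CT-26 mice lay below those of the 3 normal mice in all 11. In the hypothalamus none of the 11 was called. Ndufs1, Ndufaf5, Ndufv3, Ndufaf7 and Ndufa9 kept their call in all 12 leave-one-out fits, and Ndufs1, Ndufaf5 and Ndufv3 in every other setting as well. The calls of Ndufc2 and Ndufc1 held in 4 and 5 of the 12.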

How the results depend on the processing

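The sign of the subunit and Ndufaf medians in the gastrocnemius was negative in every setting run, but the counts of calls moved. Of subunits, 12 were lower; the count was 5 with library totals, 4 with limma on log2(TPM + 0.5) or log2(TPM + 0.1), 1 with TPM without a filter, and 4 to 20 when each library was left out. Of all genes, 18.3% were lower in the main fit, 11.7% with library totals, and 6.29% and 6.31% with the 2 TPM pseudocounts. The share was 2.94% with TPM without a filter and 12.2% to 18.2% in the leave-one-out fits. These shares also apply to the Ndufaf counts below. With same-numbered mice as a replicate block, 21 subunits and 27 of all 46 genes were lower against 19.9% of all genes, among them all 16 called without it; every library's number was given by the labels to different mice, so this is no pairing by animal. Of Ndufaf factors, 4 were lower; the count was 2 with library totals, 1 with each TPM setting and 2 to 4 in the leave-one-out fits. The count of higher genes, 1 in the main result, was 2 with each TPM setting and 0 to 1 in the leave-one-out fits. Of all genes, 33.4% and 33.7% were higher with the 2 TPM pseudocounts and 13.1% with TPM without a filter. In the leave-one-out fits this share was 12.1% to 19%. The subunit median of -0.46 was -0.0493 with TPM, -0.0494 with the smaller pseudocount and -0.0493 without a filter. In the leave-one-out fits it ran from -0.67 without the CT-26 mouse 3 to -0.25 without the normal mouse 3. The Ndufaf median of -0.54 was -0.34 with library totals, -0.13 with TPM, and -0.64 to -0.34 in the leave-one-out fits. In the hypothalamus, the lower gene was lost (0 called) with library totals, with a minimum of 1 CPM in 3 libraries, with TPM and in 5 of 6 leave-one-out fits; higher genes numbered 2 without a filter, 0 with TPM, 0 with the replicate block and 0 to 2 in the leave-one-out fits. Of all genes, 4.2% were higher there without a filter and 1.55% to 2.97% in the leave-one-out fits. The higher share was 1.03% with limma on log2(TPM + 0.5) and 2.82% with the replicate block. The lower share was 3.6% with library totals and 4.93% with the minimum of 1 CPM. It was 1.15% with limma on log2(TPM + 0.5) and 1.61% to 3.98% in the leave-one-out fits. In the interaction, 7 subunits were lower; the count was 2 with library totals, 2 with TPM, 11 with DESeq2, 14 without a filter and 3 to 25 in the leave-one-out fits, and 4 Ndufaf factors became 2 with library totals, 1 with TPM and, in the leave-one-out fits, 2 to 5. Of all genes, 14% were lower in the main interaction fit, 8.72% with library totals, 4.61% with TPM and 16.6% with DESeq2. The share was 7.94% without a filter and 10.5% to 15.9% in the leave-one-out fits. The causes of these moves in the counts were not tested. No called gene changed sign under any setting. Where a library was left out, its arm kept 2 mice. Precision is limited by 3 mice per group. The Ndufaf factors had mostly low counts, and the part of this in their precision was not tested.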

Other observations

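In the hypothalamus, 3 genes of the other complex I lists passed the test, 2 of them lower and 1 higher, against 4.83% and 3.94% of all genes. These lists held 9 assembly factors, 7 mitochondrially encoded subunits and 10 regulators. The 3 calls are therefore about as many as these background shares would give. Foxred1, an assembly factor with a flavin-binding fold, was higher in CT-26 mice, at 0.29 on the log2 scale (edgeR adjusted p = 0.0241). The mitochondrially encoded subunit mt-Nd2 was lower, at -0.32 (edgeR adjusted p = 0.0249), as was Gabpa, the DNA-binding part of nuclear respiratory factor 2, at -0.29 (edgeR adjusted p = 0.0424). The calls held in 2 of 6 leave-one-out fits for Foxred1, in 3 for mt-Nd2 and in 1 for Gabpa, and all 3 were lost with TPM. In the gastrocnemius Foxred1 and Gabpa were not called, at -0.19 and 0.25, and mt-Nd2 was lower, at -1.06 (edgeR adjusted p = 0.0311), a call that held in 2 of 6 leave-one-out fits.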
